A study of Hydra vulgaris with 12 samples.

Results

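The early wave is a group of 181 predicted mRNAs of Hydra that stood higher at 4 h and at 6 h after bisection than at 0, 2, 12 and 48 h. Its members were picked from 16988 predicted mRNAs in a table of 17353 transcripts. The deposited values are RPKM, read numbers divided by transcript length and by the mapped reads of the library. They were first scaled, so that the median over 11325 transcripts with at least 1 RPKM in every library was 20 in each library. Levels below are this scaled RPKM, and log2 values are log2(scaled RPKM + 1), averaged over the 2 libraries of a time. A transcript entered when its lower mean of 4 h and 6 h exceeded its highest mean at the other times by at least 0.5 on the log2 scale. This gap is called the rule difference here. The mean at 12 h also had to lie less than 1 above the higher mean of 0 h and 2 h. The rule found 209 transcripts, of which the condition on 12 h removed 28.

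The libraries came from strain 105 of Hydra magnipapillata, a small freshwater polyp, listed as Hydra vulgaris. The study followed head regeneration by poly(A) RNA sequencing. Animals with a young bud, kept without food for 1 day, were cut across the upper trunk and left to regenerate for 0, 2, 4, 6, 12 or 48 h. The trunk tissue next to the cut, regions R2 and R3, was then taken from 50 to 100 animals and pooled, with 2 pools for each time and 12 libraries in all. All groups thus shared strain, feeding and cut and differed in the hours since it. The samples include no uncut animals held as long, so effects of the cut and of the time kept cannot be told apart.

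Hydra rebuilds a head from trunk tissue without first growing new tissue by cell division. The wound is sealed by stretching epithelial cells, injury signals act in the first hours, and head organizer genes such as Wnt3 come on at the tip. Transcripts that peak briefly after a cut are known from many animals, among them stress genes and regulators of later steps. The table pairs 1 identifier with a name, Wnt3, and none of the 181 members has an entry in the RefSeq gene list used here. The members are therefore given by identifier, with no function attached. For the same reason the labelled tissue could not be compared with cell type markers, and no list of wound genes could be followed. In pooled tissue, a change in the number of cells that hold a transcript cannot be told apart from a change in RNA per cell.

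The libraries had values above 0 for 14492 to 16866 transcripts, with the fewest in 48 h replicate 2. The read depth is unknown. Among the members, the log2 difference between the 2 replicates had an SD of 0.801 (0 h), 0.595 (2 h), 0.440 (4 h), 0.539 (6 h), 0.773 (12 h) and 1.28 (48 h). The spread was widest at 48 h and narrowest at 4 h. Over the 14283 transcripts tested below, the same SD was 0.661 at 0 h and 0.991 at 48 h.

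The level of the group was highest at 6 h and had dropped most of the way by 12 h. The median member stood at 13.9 (0 h), 17.2 (2 h), 37.0 (4 h), 45.1 (6 h), 20.3 (12 h) and 15.1 (48 h) scaled RPKM. The median transcript tested stayed between 14.0 at 4 h and 14.6 at 2 h. Summed over all 181 members, the mean scaled RPKM with its SD (n = 2) was 17211 ± 922 (0 h), 19561 ± 2571 (2 h), 50829 ± 668 (4 h), 60157 ± 2652 (6 h), 22663 ± 514 (12 h) and 14666 ± 442 (48 h). As a share of all RPKM, the members took 4.02% and 3.91% in the 4 h libraries and 4.64% and 4.67% in the 6 h libraries. They took 1.72% and 1.84% at 0 h and 1.25% and 1.12% at 48 h. These figures describe how the members were chosen and are not tested.

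**Figure D1:**
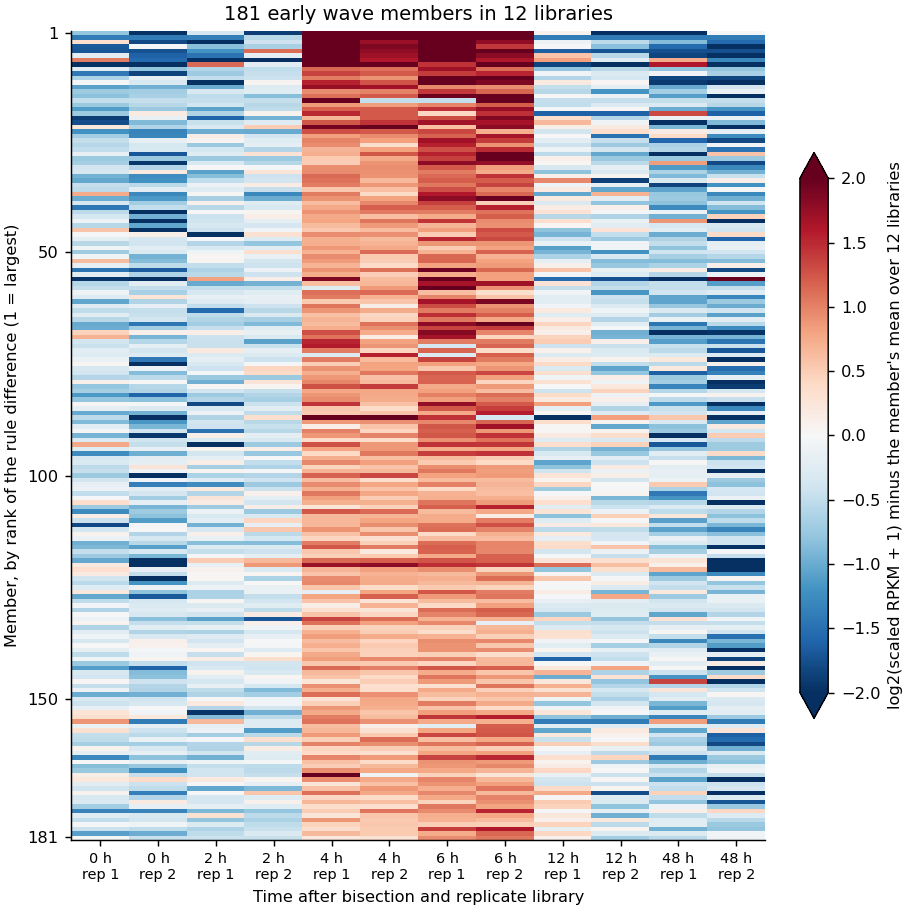
Each row is 1 of the 181 members, ordered by rule difference, and each column 1 of the 12 libraries; colour gives log2(scaled RPKM + 1) minus the member's mean over the libraries, limited to 2 in either direction. The 4 columns of 4 h and 6 h are red in most rows, as the rule requires; members under 1 scaled RPKM are most frequent in 48 h replicate 2 (43 members) and 0 h replicate 2 (37 members).

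The rule difference was modest in most members and large in a few. As a gap to the highest mean of the other times, it does not give the rise from 0 h. The rule difference ranged from 0.50 to 3.85 with a median of 0.67 and quartiles of 0.58 and 0.82. It reached 1 in 23 members and 2 in 5. Among the 145 members that averaged at least 10 scaled RPKM over 4 h and 6 h, the mean of those 4 libraries was a median of 2.44 times the mean of the other 8, and at least 1.63 times it. In 147 of the 181 members all 4 libraries of 4 h and 6 h lay above all 8 others. That pattern occurred in 3.03% of all predicted mRNAs. The rule used these same values, so the count describes the choice only. In the 34 members with overlap, the highest of the other 8 libraries was most often 0 h replicate 1 (11 members) or 12 h replicate 1 (9 members).

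XM_004207720.1 had the largest rule difference, 3.85. Its libraries held 22.9 and 9.39 scaled RPKM at 0 h, 31.5 and 10.0 at 2 h, 298 and 249 at 4 h, 798 and 836 at 6 h, 41.9 and 0.114 at 12 h, and 1.51 and 38.7 at 48 h. Both 6 h libraries stood far above both 4 h libraries, while the replicates disagreed widely at 12 h and at 48 h.

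XM_002164944.2 was close to off except in the wave, with a rule difference of 3.27. It was listed at 0 or below 0.001 scaled RPKM in both libraries of 0 h, of 12 h and of 48 h. Its libraries held 0.0237 and 0.784 at 2 h, 9.79 and 14.7 at 4 h, and 13.9 and 22.8 at 6 h. No other member under 1 scaled RPKM in all 8 libraries outside the wave reached 10 over 4 h and 6 h. There were 13 such members, averaging from 0.730 to 15.3 scaled RPKM over 4 h and 6 h with a median of 1.70.

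XM_004209516.1 held 66.1 and 14.2 scaled RPKM at 0 h, 6.06 and 39.0 at 2 h, 251 and 175 at 4 h, 229 and 181 at 6 h, 48.1 and 35.8 at 12 h, and 28.0 and 17.0 at 48 h. XM_002165610.2 held 0.704 and 4.38 at 0 h, 2.08 and 2.51 at 2 h, 32.0 and 19.0 at 4 h, 21.9 and 13.6 at 6 h, 4.43 and 2.07 at 12 h, and 0.869 and 0.0851 at 48 h. Their rule differences were 2.27 and 2.16. In both, the 4 h and 6 h libraries overlapped each other and stood clear of all others.

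**Figure D2:**
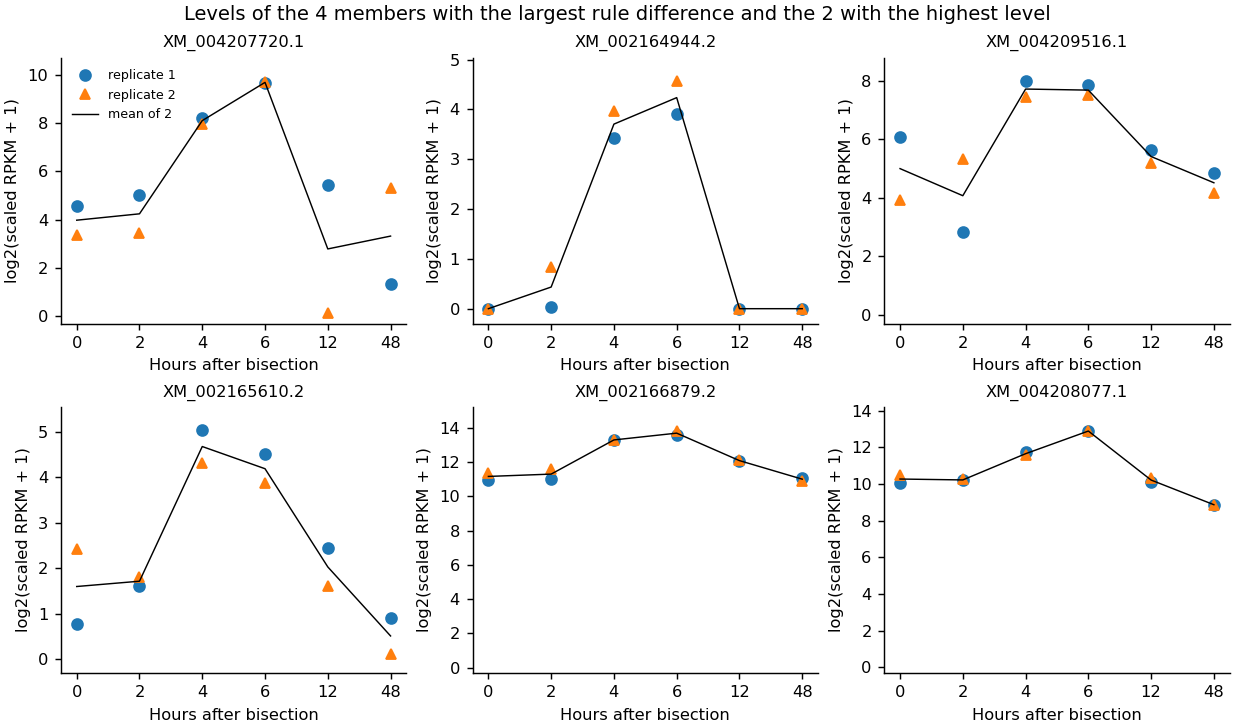
Levels as log2(scaled RPKM + 1) against hours after bisection, for the 4 members with the largest rule difference and the 2 with the highest level; circles are replicate 1, triangles replicate 2 and the line joins the means of 2. Times are evenly spaced and not to scale. The replicates of XM_004207720.1 lie far apart at 12 h and 48 h, whereas those of the abundant XM_002166879.2 and XM_004208077.1 lie almost on each other.

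A few abundant members held the bulk of the summed level. Of the 181 members, 36 averaged under 10 scaled RPKM over 4 h and 6 h, 88 lay from 10 to 100, 48 from 100 to 1000, and 9 at 1000 or more. Members under 10 made up 19.9% of the group, and transcripts under 10 made up 40.7% of the predicted mRNAs tested. The rule adds 1 before taking logarithms, which lowers the rule difference of weak transcripts. Whether this bears on the share of members under 10 was not tested. The 9 abundant members held between 54.2% and 67.5% of the summed level of the group, depending on the library. Their rule differences ran from 0.68 to 1.38 with a median of 0.93. The median was 0.73 in members under 10, 0.64 from 10 to 100 and 0.65 from 100 to 1000 scaled RPKM. In all 9 abundant members the 4 libraries of the wave stood above all 8 others.

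XM_002166879.2 was the most abundant member. Its libraries held 2016 and 2630 scaled RPKM at 0 h, 2089 and 3065 at 2 h, 9984 and 10226 at 4 h, 12114 and 14599 at 6 h, 4304 and 4438 at 12 h, and 2203 and 1929 at 48 h. This transcript alone supplied from 11.8% to 23.5% of the summed level of the group. Its 4 wave libraries averaged 4.14 times the other 8. The level at 12 h remained above every library of 0 h, 2 h and 48 h.

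XM_004208077.1 was the next in abundance and had another shape. Its libraries held 1066 and 1433 scaled RPKM at 0 h, 1170 and 1220 at 2 h, 3377 and 3078 at 4 h, 7669 and 7538 at 6 h, 1096 and 1289 at 12 h, and 468 and 466 at 48 h. Its level was higher in both 6 h libraries than in both 4 h libraries, lay within the range of 0 h in both 12 h libraries, and was lowest at 48 h.

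XM_004207919.1 had the median rule difference. It held 53.6 and 26.4 scaled RPKM at 0 h, 112 and 91.0 at 2 h, 189.6 and 207 at 4 h, 245 and 282 at 6 h, 118 and 131 at 12 h, and 15.4 and 148 at 48 h. Here the libraries of 2 h and 12 h lay between those of 0 h and those of the wave. Of the 181 members, 112 had a higher mean at 2 h than at 0 h, or 61.9%, against 54.8% of the transcripts tested. At 12 h, 126 had a higher mean than at 0 h, or 69.6%, against 47.7% of the transcripts tested. The size of the step at 2 h was less usual. The log2 level of XM_004207919.1 at 2 h was 1.40 above 0 h, and 11 of the 181 members stood at least 1 higher at 2 h. Its spread at 48 h was wide.

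Near the threshold the lower wave mean stood about 0.5 above the highest mean of the other times on the log2 scale. That gap does not measure the rise from 0 h. The members with the smallest rule differences, 0.50 and 0.51, were XM_002156981.1 and XM_002164480.2. XM_002156981.1 held 54.6 and 57.5 scaled RPKM at 4 h, with 49.2 in 12 h replicate 1 and 45.5 in 0 h replicate 1. XM_002164480.2 held 90.5 and 82.7 at 4 h and 77.3 in 12 h replicate 1. From 26.7 and 28.4 at 0 h it reached 96.6 and 129 at 6 h. The transcripts next outside, XM_004206021.1 and XM_002159936.2, both had a rule difference of 0.50 after rounding, but unlike levels. XM_004206021.1 held 165 and 148 scaled RPKM at 4 h and 102 and 119.7 at 12 h. It went from 33.7 and 16.0 at 0 h to 267 and 202 at 6 h. XM_002159936.2 went from 12.8 and 14.0 at 0 h to 21.5 and 26.9 at 6 h. A total of 30 members lay under 0.55, and 39 transcripts that met the condition on 12 h lay between 0.45 and the threshold, so the border cut through a continuous range.

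Differences between times were tested with limma, a linear model across all 14283 transcripts that reached 1 RPKM in 2 or more libraries. A transcript passed when its Benjamini-Hochberg adjusted p was below 0.05 and its log2 difference at least 1 in size. Of the members, 180 were tested. 14 of them passed the filter only through libraries of 4 h and 6 h. The member left out, XM_004207805.1, reached at most 1.76 scaled RPKM, in 6 h replicate 2, and is named after its values were seen. In contrasts that the rule used, 75 members were higher at 4 h than at 0 h (6.41% of all transcripts tested), 103 were higher at 6 h than at 0 h (7.35%), and 68 were higher at both (4.92%). Against 2 h, 64 were higher at 4 h (3.94%) and 87 at 6 h (5.31%). Against 48 h, 95 were higher at 4 h (6.17%) and 119 at 6 h (7.55%). Against 12 h, 16 members were higher at 4 h (0.371%) and 52 at 6 h (1.37%). Nothing is read from these counts, since the same values chose the members. The 4 contrasts that follow have no direction set by the rule: 6 h against 4 h, and 2 h, 12 h and 48 h against 0 h. The rule still bounded both sides of each, in the same libraries, and the contrasts with 0 h share its 2 libraries.

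**Figure D3:**
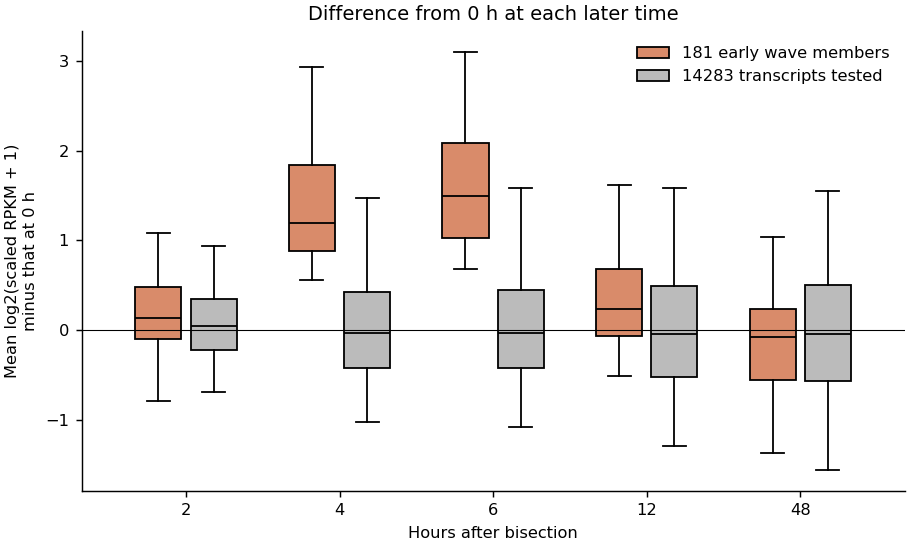
Mean log2 level at each later time minus that at 0 h, for the 181 members (left box) and the 14283 transcripts tested (right box) at each time; boxes span the quartiles, with the median inside, and whiskers run from the 5th to the 95th percentile. The medians of the members are 0.14 at 2 h, 0.24 at 12 h and −0.08 at 48 h, against 0.05, −0.04 and −0.04 for the transcripts tested; the rule set the high boxes at 4 h and 6 h.

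The mean was more often higher at 6 h than at 4 h, although few members passed the test. Of the 181 members, 128 had the higher mean at 6 h and 53 at 4 h, which is 70.7% higher at 6 h, against 52.3% of the transcripts tested. The median log2 difference was 0.24 in the members and 0.01 in the transcripts tested. The median of the members was 0.16 without 4 h replicate 2. In 83 members both 6 h libraries lay above both 4 h libraries, and in 18 both lay below. The difference was at least 1 in 13 members upward and in 1 downward. The rule used both means, and these counts are descriptive. Separation of the libraries and differences of at least 1 were not counted over all transcripts tested, so nothing is read from them.

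**Figure D4:**
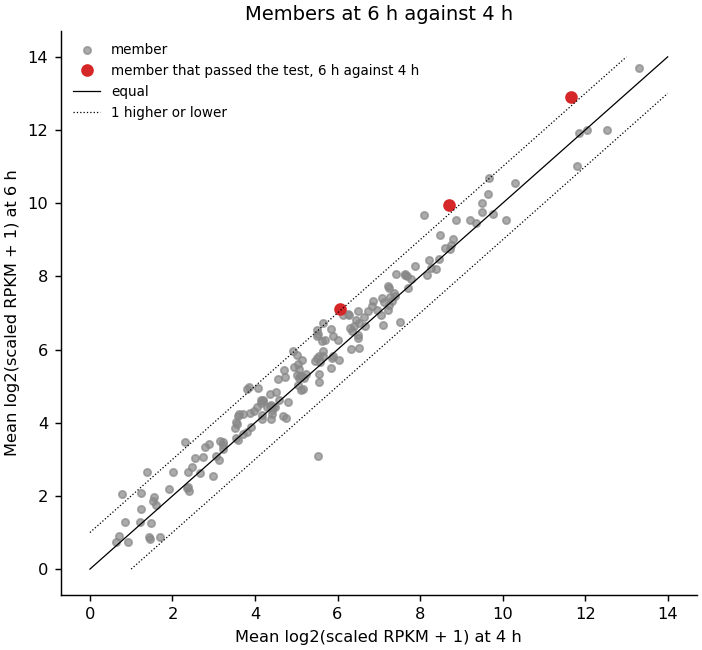
Mean log2(scaled RPKM + 1) at 6 h against 4 h, 1 point for each of the 181 members; the solid line marks equal levels, dotted lines a difference of 1, and the 3 larger red points the members that passed the test. Most points lie slightly above the line over the whole range of levels, and 1 point, XM_002155610.2, lies far below it.

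In the test of 6 h against 4 h, 3 members rose and 0 fell, of 180 tested. Over all transcripts 0.133% were higher and 0.056% lower. XM_004208077.1, with 7669 and 7538 scaled RPKM at 6 h against 3377 and 3078 at 4 h, rose by 1.24 on the log2 scale (SE 0.16, limma adjusted p = 0.0290). XM_002160427.2 held 910.1 and 1061 at 6 h against 415 and 422 at 4 h and rose by 1.23 (SE 0.18, limma adjusted p = 0.0399). XM_002169135.1 held 128 and 148 at 6 h against 61.8 and 69.8 at 4 h and rose by 1.06 (SE 0.15, limma adjusted p = 0.0381). The last 2 were named after their values were seen, as they completed the 3 calls. At 12 h XM_002160427.2 held 245 and 206 and XM_002169135.1 held 42.6 and 49.4. Both were below 4 h, which the rule requires of the mean of every member. The calls were fragile. All 3 were lost with a replicate block (limma adjusted p from 0.0563 to 0.0589), in a fit limited to the 4 libraries concerned, without a variance trend, and when any library of 4 h, 6 h or 12 h was left out. With a library of 0 h or 2 h left out, XM_004208077.1 still passed and the others did not. With a 48 h library left out, 3 passed. In each of the 3, however, both 6 h libraries lay above both 4 h libraries.

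The largest mean differences did not pass. XM_004207720.1, at 798 and 836 scaled RPKM at 6 h against 298 and 249 at 4 h, differed by 1.58 with an SE of 1.63 (limma adjusted p = 1). Its replicates differed most at 12 h and 48 h, and the fit shares 1 spread over all times. In the other direction, XM_002155610.2 held 14.9 and 3.57 at 6 h against 36.7 and 55.8 at 4 h, a log2 difference of −2.44 (SE 1.29, limma adjusted p = 1). XM_002164356.2, an abundant member, held 2104 and 2059 at 6 h against 3630 and 3473 at 4 h (log2 difference −0.77, SE 0.26, limma adjusted p = 0.526). It was among the 3 of the 9 abundant members with the higher mean at 4 h. Over those 9 the difference ran from −0.77 to 1.24.

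At 2 h the members lay near 0 h, in values that the rule bounds: the mean at 2 h had to be at least 0.5 below both wave means. The members lay a median of 0.14 above 0 h on the log2 scale, against 0.05 in all transcripts tested. Expressed for each member as a share of its log2 difference between 0 h and the mean of 4 h and 6 h, the median member had covered 9.58% of the way at 2 h, with quartiles of −10.6% and 31.3%. In 60 members both 2 h libraries lay above both 0 h libraries, and in 24 both lay below. Such separation was not counted over all transcripts tested, of which 54.8% had the higher mean at 2 h, against 61.9% of the members. With limma 0 of 180 members passed, while 33 had an unadjusted p below 0.05. Over all transcripts tested 0.14% were higher and 0.035% lower at 2 h, and 2032 had an unadjusted p below 0.05. On the deposited RPKM 1 member fell, and with quantile normalization 2 members fell. With weights per library 1 rose. Without 0 h replicate 1, 2 rose, and without 2 h replicate 2, 1 fell.

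Individual members nevertheless differed at 2 h by large amounts, within a wide spread. XM_004209145.1 held 11.2 and 3.77 scaled RPKM at 2 h, against below 0.001 and 0.319 at 0 h (log2 difference 2.73, SE 1.09, limma adjusted p = 0.305). XM_004208865.1 held 7.35 and 4.24 at 2 h, against 0.24 and 0.0256 at 0 h (2.55, SE 1.37, limma adjusted p = 0.450). In both members each 2 h library stood above each 0 h library. Both were also below 1 scaled RPKM in both 12 h libraries.

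XM_004209514.1 went the other way before the wave. It held 0.646 and 1.98 scaled RPKM at 2 h, against 70.1 and 10.8 at 0 h, and 216 and 104 at 4 h (2 h minus 0 h −3.71, SE 0.91, limma adjusted p = 0.12). XM_004211184.1 held below 0.001 and 3.82 at 2 h, against 12.5 and 4.71 at 0 h (−2.00, SE 0.68, limma adjusted p = 0.241). Each of these members had a trough at 2 h that did not overlap with 0 h. None of these 4 differences passed in any of 23 alternative fits.

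At 12 h, where the rule again keeps the mean at least 0.5 below the wave and also limits it from above, the levels are a description of the members chosen. The members lay a median of 0.24 above 0 h, against −0.04 in all transcripts tested. Leaving out 12 h replicate 1 gave a median of 0.08, and leaving out 12 h replicate 2 gave 0.41. It was 0.36 with 0 h replicate 1 left out, and 0.14 with 0 h replicate 2 left out. The median member stood at 16.0% of its log2 difference between 0 h and the wave, with quartiles of −4.98% and 43.6%. Among the 4 times outside the wave, 12 h was the highest in 89 members, 2 h in 50, 0 h in 28 and 48 h in 14. The same ranking was not made over all transcripts. Replicates did not contribute equally. Of the members, 123 stood higher in 12 h replicate 1 than in 12 h replicate 2, by a median of 0.22, and 12 h replicate 1 was the highest library outside the wave in 64 members. On the deposited RPKM the median of the members at 12 h was −0.02 and that of all transcripts −0.32.

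Of 180 members tested, 20 rose and 1 fell at 12 h relative to 0 h. Over all transcripts tested, 8.33% were higher and 5.89% lower. The rule bears on this count from both sides: the mean at 12 h must stay at least 0.5 below the wave and less than 1 above the higher of 0 h and 2 h. A member can therefore pass upward only where 2 h already lay above 0 h. The 20 rises ran from 1.06 to 1.85 on the log2 scale. The total of 21 was 10 on the deposited RPKM, 13 with a pseudocount of 5 and 10 when the fit held just the 4 libraries concerned. Leaving out 0 h replicate 2 gave 12, and leaving out 12 h replicate 1 gave 11.

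Of these 20, XM_002154809.1 had the lowest p, and it was chosen after its values were seen. It held 31.4 and 21.9 scaled RPKM at 12 h, against 10.2 and 7.2 at 0 h. The wave itself stood at 45.1 and 41.2 at 4 h and 49.0 and 53.1 at 6 h. Between 12 h and 0 h the log2 difference was 1.5 (SE 0.21, limma adjusted p = 0.00173), and it passed in all 23 alternatives. The level at 48 h was still 23.5 and 25.3. XM_002164238.2 was the member that fell, by 1.17 (SE 0.22, limma adjusted p = 0.00574), with 149.9 and 133 at 12 h against 333 and 304 at 0 h. It passed in all 23 alternatives. Its 2 h libraries, at 143 and 179, and its 48 h libraries, at 105 and 158, also lay below both 0 h libraries, so that its wave of 532 and 407 at 4 h and 705 and 775 at 6 h interrupted a lower level.

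The largest mean differences at 12 h rested on a low library at 0 h or at 12 h and did not pass. XM_004209427.1 held 50.5 and 35.0 at 12 h, against 26.0 and a listed 0 at 0 h (log2 difference 3.05, SE 1.60, limma adjusted p = 0.202). It passed in 1 of 23 alternatives, without 0 h replicate 1 (0.0437). XM_002161816.2 held 11.7 and 12.3 at 12 h, against 4.24 and 0.583 at 0 h (2.17, SE 0.89, limma adjusted p = 0.110), and passed in 3 of 23, with quantile normalization and without either 48 h library. XM_004207720.1 held 41.9 and 0.114 at 12 h, against 22.9 and 9.39 at 0 h (−1.19, SE 1.63, limma adjusted p = 0.639). Without 12 h replicate 2 the difference was 1.44, and without 12 h replicate 1 it was −3.82.

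At 48 h the group as a whole stood close to 0 h, with members on both sides. The median log2 difference from 0 h was −0.08 in the members and −0.04 in all transcripts tested. Leaving out 0 h replicate 1 gave a median of 0.00, and leaving out 0 h replicate 2 gave −0.21. The mean was lower or equal in 106 members and higher in 75, or 41.4% higher, against 47.5% of the transcripts tested. The lowest of the 4 times outside the wave was 48 h in 84 members and 0 h in 53, a ranking not made over all transcripts. With limma 6 members rose and 12 fell, against 9.08% higher and 8.35% lower among all transcripts tested. In 180 members these are 3.33% and 6.67%, no more than the background. On the deposited RPKM, where the median of all transcripts lay at −0.39, 2 members rose and 31 fell. On the scaled RPKM, the 6 rises and 12 falls are 18 calls together. There were 8 with weights per library, and 1 when the fit held just the 4 libraries concerned.

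XM_002157361.2 had the lowest p among the rises and was chosen after its values were seen. It held 93.4 and 117 scaled RPKM at 48 h, against 33.9 and 34.0 at 0 h (log2 difference 1.59, SE 0.24, limma adjusted p = 0.00197; passed in all 23 alternatives). Its wave of 123 and 183 at 4 h and 168 and 252 at 6 h thus fell back to a level well above the start, with 85.1 and 76.7 at 12 h. XM_004208077.1, the abundant member that also rose between 4 h and 6 h, ended lower. It held 468 and 466 at 48 h, against 1066 and 1433 at 0 h (−1.40, SE 0.16, limma adjusted p = 8.12e-04), and passed in 22 of 23 alternatives. The exception was the fit limited to those 4 libraries (adjusted p = 0.0536).

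XM_002165479.2 fell furthest among the members that passed. It held 0.481 and 1.25 scaled RPKM at 48 h, against 11.1 and 8.42 at 0 h (−2.55, SE 0.42, limma adjusted p = 0.00313), and lost its call in 1 of 23 alternatives, the fit limited to those 4 libraries (adjusted p = 0.0594). XM_004211837.1 held 24.2 and a listed 0 at 48 h, against 54.1 and 30.0 at 0 h (−3.04, SE 1.17, limma adjusted p = 0.0834), and passed in 2 of 23 alternatives, on the deposited RPKM and without 48 h replicate 1. The largest upward differences at 48 h each rested on 1 library. XM_004208865.1 held below 0.001 and 40.2 at 48 h, against 0.24 and 0.0256 at 0 h (2.51, SE 1.37, limma adjusted p = 0.206). XM_004209145.1 held 16.0 and below 0.001 at 48 h, against below 0.001 and 0.319 at 0 h (1.84, SE 1.09, limma adjusted p = 0.241). Without the high library the differences were −0.17 for XM_004208865.1 and −0.20 for XM_004209145.1. With the high library as the lone value of 48 h, assumed to vary like the other times, both passed, at 5.19 and 3.88.

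Since the rule used all 12 libraries, it was also applied to 1 replicate alone and its choice looked up in the other. Applied to the 6 libraries of replicate 1, the rule chose 187 predicted mRNAs, of which 102 (54.5%) were early wave members. Of the 187, 59 also met the rule in the 6 libraries of replicate 2, or 31.6%, against 1.29% of all predicted mRNAs. Chosen in replicate 2, 219 transcripts were found, of which 118 (53.9%) were members. Of the 219, the same 59 met the rule in replicate 1, or 26.9%, against 1.1% of all, so both look-ups rest on 1 overlap. These shares describe the sets chosen in 1 replicate and not the early wave members as a group. The median rule difference of the transcripts chosen in replicate 1 was 0.69 there and 0.29 in replicate 2. For those chosen in replicate 2 it was 0.69 there and 0.21 in replicate 1. The median over all predicted mRNAs was −0.55 in replicate 2 and −0.50 in replicate 1. In the replicate that did not choose them, 66.8% and 63.5% of the transcripts kept a positive difference, against 9.32% and 9.29% of all. The labels do not say if pools of the same time stem from separate days. Replicate numbers are taken as names, so putting same-numbered libraries together is 1 possible split among others.

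Taken replicate by replicate, the 181 members were uneven. The rule difference reached 0.5 in replicate 1 in 108 members, in replicate 2 in 119, and in both in 65. It was above 0 in both replicates in 157 members and at or below 0 in at least 1 replicate in 24. The lowest values were −1.11 in replicate 1 and −2.47 in replicate 2. Leaving out 1 library at a time gave between 166 and 212 transcripts, of which between 128 and 172 were among the 181. The smallest overlap, 128, came without 12 h replicate 2, where the rule found 166.

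**Figure D5:**
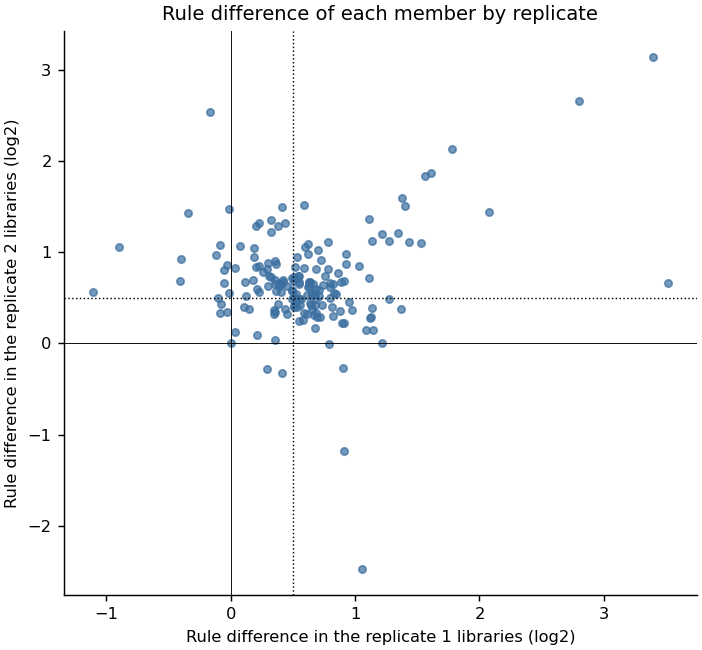
Rule difference of each of the 181 members computed in the 6 replicate 2 libraries against the 6 replicate 1 libraries, in log2 units; dotted lines mark 0.5 and solid lines 0. The 65 members in the upper right field pass 0.5 in both replicates, and 24 members lie at or below 0 in at least 1.

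The identifiers could be compared only by accession series and order. The members were 96 revised models of the older RefSeq series (XM_002, version 2), 17 unrevised ones of that series (version 1) and 68 of the newer series (XM_004). In percent these are 53.0, 9.39 and 37.6, against 49.9, 3.23 and 46.8 of all predicted mRNAs. Unrevised models of the older series thus held a larger share of the members, and the newer series a smaller one, which was not tested. In the order of accession numbers, 3 pairs of members were neighbours. No number for randomly picked predicted mRNAs was computed, so the count is not read as low or high. The members with large rule differences XM_004209514.1 and XM_004209516.1 have close numbers and similar levels in the wave, and differ at 2 h. Among 364 predicted non-coding RNAs, which the rule left out, 3 met the same conditions, or 0.824%, against 1.07% of the predicted mRNAs.

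The 28 transcripts removed by the condition on 12 h had a similar median rule difference, 0.70, and lay a median of 1.96 above 0 h at 12 h. Wnt3, a secreted ligand of the head organizer, did not share the wave. It held 1.37 and 1.90 scaled RPKM at 0 h, 2.93 and 3.40 at 2 h, 5.84 and 4.44 at 4 h, 6.99 and 5.34 at 6 h, 5.89 and 7.61 at 12 h, and 11.1 and 9.29 at 48 h, with a rule difference of −0.87. Its level was highest at 48 h, where the members' median was near its start.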

How the data were processed

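Per the labels' protocols, total RNA of each pool went through poly(A) selection and a strand-specific preparation, and libraries were sequenced from 1 end for 50 bp. Bowtie 0.12.8 is named in the submitters' processing notes. The sources used here give no build, read assignment or filters. RPKM values were deposited by the authors, and counts were not used here. Between 1489 and 1968 transcripts per library lay above 0 and below 0.001 RPKM, so whole reads could not be recovered and depth is unknown. How reads shared by similar transcripts were divided is unknown, which makes their values uncertain.

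RPKM were scaled and logged as described (pseudocount 1). limma 3.58.1 in R 4.3.3 fitted 1 mean per time to all 12 libraries with a variance trend (6 residual degrees of freedom). p-values are two-sided and measure the spread between pools. Members and lists were chosen with earlier results of these data known. Members were named by fixed ranks: the 4 largest rule differences, the 2 highest levels, the median, 2 on each side of the threshold, and the 2 largest and 2 smallest differences of each contrast among members at 10 or more scaled RPKM. Further names are marked as chosen after their values were seen. Alternatives covered scaling, pseudocount, filter, trend, weights, replicate block and left-out libraries. Tables and plots used Python 3.11.15 and matplotlib 3.10.9.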

Additional observations from a re-analysis of the deposited data

How the results depend on the processing

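The rule gave between 157 and 263 transcripts under other scalings, a pseudocount of 0.1 and other filters, 116 with a pseudocount of 5 and 23 with a minimum difference of 1. Members that passed at 6 h against 4 h numbered 3, but 0 without a variance trend, with the replicate block or in the fit of only the 4 libraries compared, 5 with weights per library, and 0 to 3 without 1 library. At 2 h they numbered 0, but 1 on deposited RPKM, 2 with quantile normalization, 1 with weights, and 0 to 2 without 1 library. At 12 h they numbered 21, but 10 on deposited RPKM, 13 with a pseudocount of 5, 10 in the fit of 4 libraries, and 11 to 27 without 1 library. At 48 h they numbered 18, but 33 on deposited RPKM, 8 with weights, 1 in the fit of 4 libraries, and 10 to 38 without 1 library. The cause of these shifts was not tested. Of 139 counts and shares, 108 stayed within 1.5 times. The 139 include counts in the contrasts that the rule used, from which nothing is read. Those further off include the counts at 6 h against 4 h that fell to 0.

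Directions reversed in 3 of 483 values of named members: XM_004207720.1 at 12 h (−3.82 to 1.44 without 1 library, 1.44 without 12 h replicate 2), XM_004208865.1 at 48 h (−0.17 without 48 h replicate 2, 5.19 without 48 h replicate 1) and XM_004209145.1 at 48 h (−0.20 without 48 h replicate 1, 3.88 without 48 h replicate 2). Replicate numbers were taken as names, not as a pairing: the deviations of same-numbered libraries correlated with r from −0.10 to 0.24 over 15 pairs of times, and above 0.1 in 1 pair. That pair was 6 h and 4 h (0.24), whose contrast lost its 3 calls under the block. With the replicate block 20 members passed at 12 h, 18 at 48 h and 0 at 2 h. Depth is unknown, so absence at low levels cannot be judged.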
